A study of Homo sapiens with 6 samples.

Results

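The genes described here are the matrix metalloproteases (MMP), the ADAM and ADAMTS proteases and the tissue inhibitors of metalloproteases (TIMP), taken by gene symbol from an expression array study of a human embryonic stem cell line. A gene entered when its symbol was MMP, ADAM or ADAMTS followed by a number, or TIMP1 to TIMP4, which gave 64 of the 18417 genes measured: 22 MMP, 4 TIMP, 21 ADAM and 17 ADAMTS genes. Each gene is represented by 1 probe set, a group of array probes read as 1 value, and where a gene had several the brightest on average was used. The symbol rule uses no measured difference between groups, although it was set with earlier results of these data known.

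Total RNA came from the established stem cell line WA09 (human, embryonic), with 2 arrays in each of 3 groups. The first group was undifferentiated cells kept in StemPro medium (hESC). The second was nascent mesoderm positive for the transcription factor ISL1 (INM), made in 4 days with 25 ng/ml of Wnt3a and 50 ng/ml of BMP4, and the third was smooth muscle cells (SMC), made with the same factors in 21 days. All 3 groups are of 1 cell line, the labels name no sort and no separate cultures behind the replicates, and the p-values therefore cover the spread among these arrays alone, which may be technical.

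Matrix metalloproteases are zinc enzymes that cut collagens, proteoglycans and other proteins outside the cell. Most are secreted and some are anchored in the plasma membrane. ADAM proteins sit in the membrane, where the active ones cut off ("shed") the outer parts of growth factors, receptors and adhesion molecules, and the ADAMTS enzymes are secreted and work on proteoglycans and procollagens. TIMP proteins bind the active site of MMPs and block it, and only some of them are known to block certain ADAM and ADAMTS enzymes. Smooth muscle is a tissue where the balance of proteases and inhibitors is known to matter for the vessel wall.

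Values are log2 signals as deposited, so a difference of 1 is a factor of 2 in signal, and signals of different genes are not compared because each probe set responds differently. The gap between replicates was widest in INM: the pooled SD between replicates over all genes was 0.313 in INM against 0.149 in hESC, and 0.132 in SMC against 0.313 in INM. Of the marker genes, 6 of 6 measured stem cell genes and 8 of 10 smooth muscle genes differed between SMC and hESC in limma's test, and ISL1 was 4.10 higher in INM than in hESC on the log2 scale. The exceptions were DES, desmin, and MYH11. MYH11, the myosin heavy chain that defines mature smooth muscle, read 5.59 and 5.43 in SMC, against 5.77 and 5.51 in hESC. Markers of other cells also moved: the summed linear signal of 5 endothelial genes was 1249 and 1213 in SMC, against 685 and 696 in hESC, and that of 5 epithelial genes was 13154 and 13103 in hESC, 18531 and 20805 in INM, then 7966 and 8516 in SMC. Of the endothelial genes, PECAM1 (1.43) and CDH5 (0.95) were called higher in SMC versus hESC. TEK (0.90), TIE1 (0.07) and VWF (-0.08) were not called. The epithelial genes went both ways in INM versus hESC, where KRT8 and KRT18 were called higher and CLDN6 lower. CDH1 and EPCAM had lower means in INM and were not called. The higher epithelial sum in INM was thus not a rise of all 5 genes. The epithelial genes also went both ways in SMC versus hESC. KRT8 (1.46) and KRT18 (1.15) were called higher and CDH1 (-4.46), EPCAM (-4.54) and CLDN6 (-3.91) lower. Their part in the results was not tested, and in RNA from whole cultures fewer cells of a type and less RNA per cell cannot be told apart.

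Below, "called" means an adjusted p under 0.05 in limma's moderated test, fitted over the whole set of 18417 genes. The 3 groups share 1 estimate of the spread for each gene, so a wide gap between the INM arrays also enters SMC versus hESC. A fit without 1 array leaves 1 array in that group, and its p-values leave out the gap between that group's arrays. By the test over all 3 groups, 37 of the 64 genes were called (57.8%), against 45.5% of all genes. The number was 27 to 43 in fits that left out 1 array. Signals of 5.04 and below, the smallest of the 6 array medians over unnamed probe sets, are not shown to lie above background. The mean lay over that limit for 50 of the 64 genes (78.1%), against 86.6% of all genes. Fold changes are given only where both group means lay over it, and other differences are given on the log2 scale alone. The genes under the limit on all 6 arrays were the 9 genes ADAM2, ADAM5, ADAM18, ADAM29, ADAM30, MMP8, MMP12, MMP13 and MMP26.

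**Figure D1:**
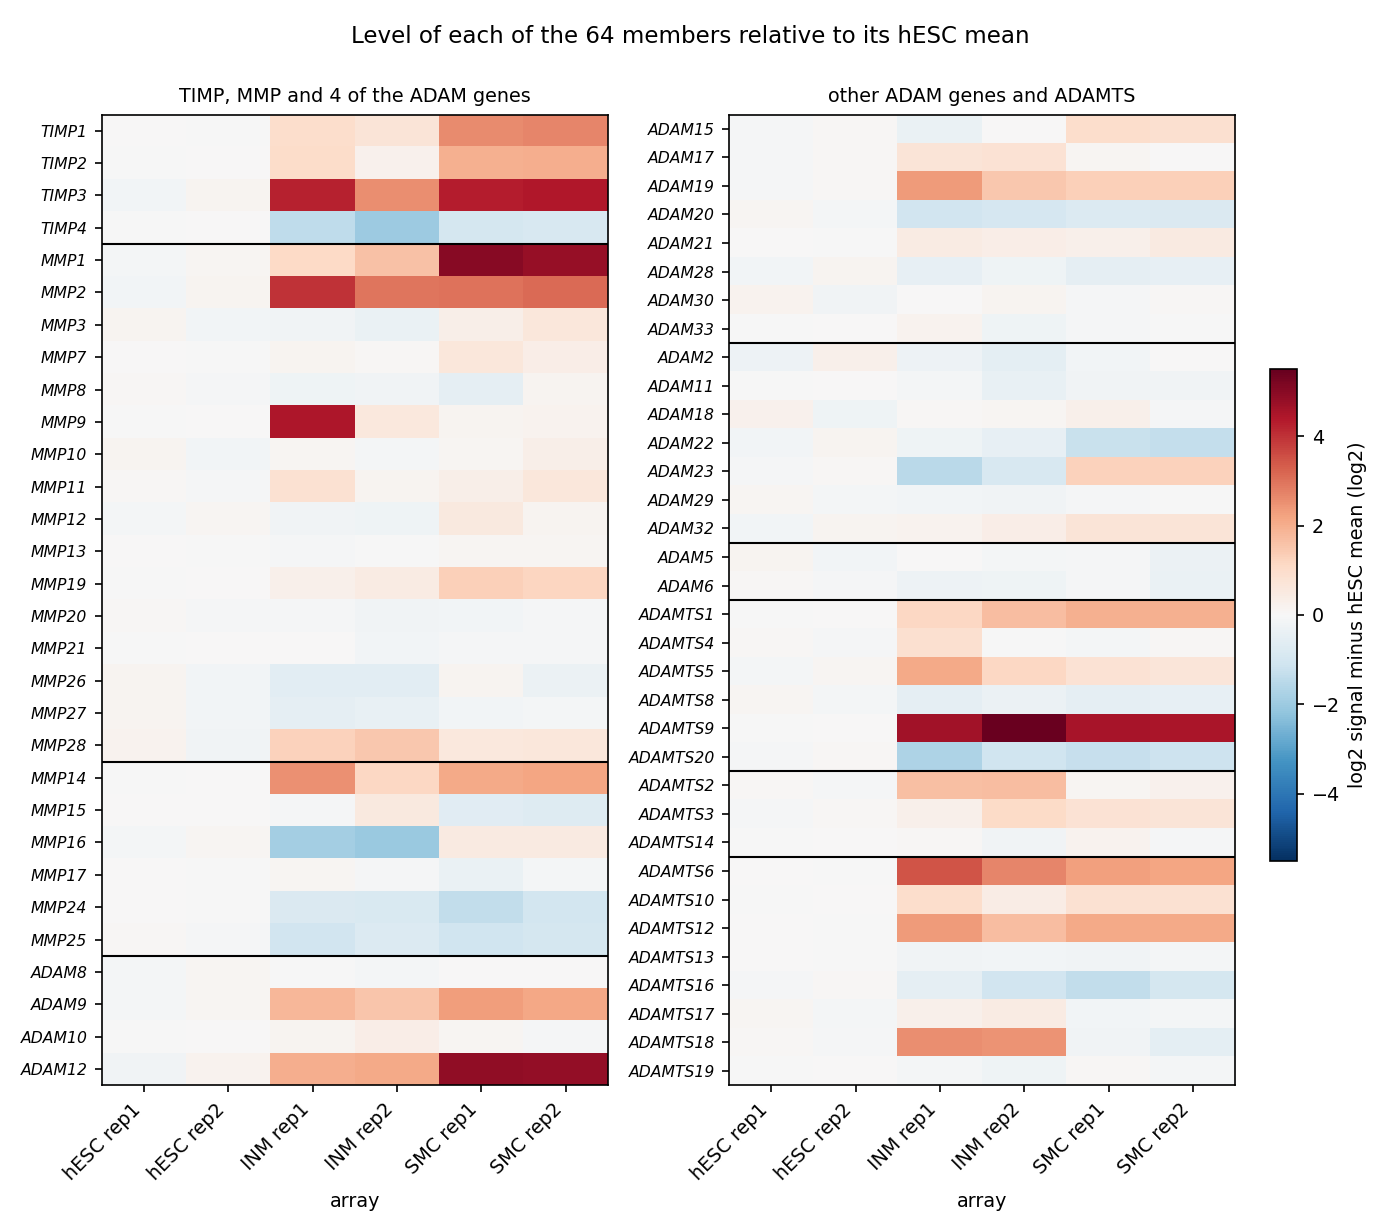
Log2 signal of each of the 64 genes on the 6 arrays, as the difference from the mean of the 2 hESC arrays, with arrays in columns in the order hESC, INM and SMC and genes grouped by role, with lines between role classes. Red is higher and blue lower than in hESC. ADAMTS9, TIMP3 and MMP2 are red in both INM and SMC, ADAM12 and MMP1 are reddest in SMC, and ADAMTS18 is red in INM only among the 3 groups.

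INM was set against hESC to see which of these genes differ after 4 days of differentiation. ADAMTS9, TIMP3, MMP2 and ADAMTS6 rose, by 32.5-fold, 10.5-fold, 11-fold and 8.41-fold, while MMP16 and TIMP4 fell, by 3.86-fold and 3.25-fold. The size for TIMP3 depends on the probe set, and its other one differed by 0.82 on the log2 scale, with INM replicate 2 (7.36) between the hESC arrays (7.15 and 7.48). In all, 19 of 64 genes were called higher (29.7%, against 18.9% of all genes) and 10 were called lower (15.6%, against 14.8% of all genes). The share called lower was close to that of all genes. The median change was 0.05 for the 64 genes and -0.03 for all genes on the log2 scale. The array medians were 0.19 lower in INM than in hESC, and centring each array on its median gave 25 genes higher and 7 lower. Centring moves all genes of an array by the same amount. The shares of all genes called after it were not counted, here or in the comparisons below. Counts after centring are therefore not to be set against the shares of all genes given. Of the 29 calls, 21 were kept without hESC replicate 1 and 22 without hESC replicate 2, and the number of genes called lower was 6 in either fit.

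SMC was set against INM to see which genes differ between day 21 and day 4. MMP1 rose 11.7-fold and ADAM12 7.02-fold, MMP16 rose 5.40-fold and ADAM23 5.36-fold, and ADAMTS18 fell by 2.87 on the log2 scale. The counts were 12 of 64 called higher (18.8%, against 9.94% of all genes) and 8 called lower (12.5%, against 11.1% of all genes). With all 6 arrays, 0 ADAMTS genes were called higher, and ADAMTS2, ADAMTS6, ADAMTS17 and ADAMTS18 were called lower. The ADAMTS gene nearest to a call upward was ADAMTS1, at 0.54 (adjusted p = 0.101, limma), and at an unadjusted p under 0.05 the count upward was 1. The sizes moved with the INM array left out. Without INM replicate 1, ADAMTS10 was at 0.43 and ADAMTS12 at 0.40. Without INM replicate 2, ADAMTS1 was at 0.83, ADAMTS3 at 0.49 and ADAMTS20 at 0.46. These passed the threshold in those fits, which leave out the gap between the INM arrays, so the count of 0 is not firm. Median centring gave 10 higher and 8 lower. This comparison depended most on single arrays: 8 calls in all were made without SMC replicate 1 (6 higher, 2 lower), 9 without SMC replicate 2 (7 higher, 2 lower), and 27 without INM replicate 2, of which 13 were lower. Without either hESC array, 5 genes were called lower.

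SMC was set against hESC for the whole course. ADAM12 rose 28.8-fold, ADAMTS9 23-fold, TIMP3 20.5-fold, MMP2 8.25-fold and TIMP1 6.27-fold, and MMP1 rose by 4.89 on the log2 scale. The other TIMP3 probe set differed by 1.92 on that scale. In all, 22 of 64 genes were called higher (34.4%, against 19.7% of all genes) and 10 lower (15.6%, against 17.6% of all genes). The largest falls were those of ADAM22, 2.43-fold, ADAMTS20, 2.34-fold, and MMP24, 2.26-fold. Median centring gave 24 higher and 7 lower. Without SMC replicate 1 or 2 there were 20 and 21 calls in all, and 5 and 6 lower. Without hESC replicate 1 there were 21 calls, 6 of them lower, and without hESC replicate 2 there were 5 lower. The 3 comparisons share arrays, so their counts are not independent of each other.

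**Figure D2:**
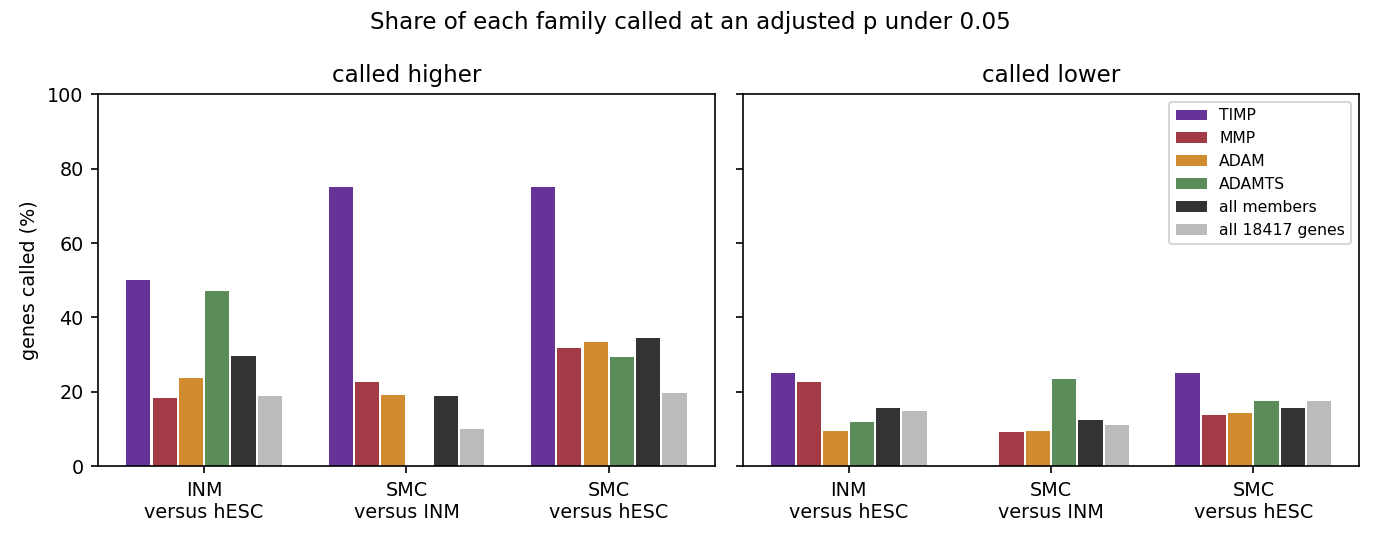
Percent of genes called higher and called lower at an adjusted p under 0.05 in each of the 3 comparisons, for the TIMP, MMP, ADAM and ADAMTS families, the 64 genes together and all 18417 genes. In SMC versus hESC, 34.4% of the 64 genes were called higher against 19.7% of all genes, and 15.6% were called lower against 17.6%.

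The inhibitors come first. The starts of TIMP1, TIMP3 and TIMP4 are shown with those of ADAM12 and ADAMTS18, as examples of 4 of the courses seen here: called higher in all 3 comparisons (TIMP1, ADAM12), higher than hESC in both INM and SMC (TIMP3), lower than hESC in both and lowest in INM (TIMP4), and high in INM only (ADAMTS18). Each window holds the 250 bases before and 50 bases after the gene's start, from RefSeq on GRCh38.p14, at chrX:47582186-47582485 on the plus strand for TIMP1, chr22:32801455-32801754 on the plus strand for TIMP3, chr3:12158863-12159162 on the minus strand for TIMP4, chr10:126388428-126388727 on the minus strand for ADAM12 and chr16:77434985-77435284 on the minus strand for ADAMTS18. Capitals mark the GC box GGGCGG, the core of the site of Sp1-family factors, on either strand.
TIMP1: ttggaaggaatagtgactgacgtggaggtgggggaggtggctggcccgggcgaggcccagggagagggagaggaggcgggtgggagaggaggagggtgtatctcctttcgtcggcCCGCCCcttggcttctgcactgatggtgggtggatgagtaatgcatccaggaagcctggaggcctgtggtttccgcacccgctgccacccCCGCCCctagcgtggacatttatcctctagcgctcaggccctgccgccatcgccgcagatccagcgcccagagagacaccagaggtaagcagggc
TIMP3: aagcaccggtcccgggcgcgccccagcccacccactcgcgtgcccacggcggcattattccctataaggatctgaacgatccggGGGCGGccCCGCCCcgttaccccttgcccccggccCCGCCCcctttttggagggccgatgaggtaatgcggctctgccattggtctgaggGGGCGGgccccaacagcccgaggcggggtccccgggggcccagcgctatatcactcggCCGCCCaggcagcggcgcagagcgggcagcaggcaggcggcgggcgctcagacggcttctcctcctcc
TIMP4: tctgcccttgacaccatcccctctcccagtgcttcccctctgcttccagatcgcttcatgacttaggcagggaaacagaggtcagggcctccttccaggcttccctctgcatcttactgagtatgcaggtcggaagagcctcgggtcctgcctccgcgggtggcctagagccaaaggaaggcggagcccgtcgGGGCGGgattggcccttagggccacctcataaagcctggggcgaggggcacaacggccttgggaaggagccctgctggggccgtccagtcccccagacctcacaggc
ADAM12: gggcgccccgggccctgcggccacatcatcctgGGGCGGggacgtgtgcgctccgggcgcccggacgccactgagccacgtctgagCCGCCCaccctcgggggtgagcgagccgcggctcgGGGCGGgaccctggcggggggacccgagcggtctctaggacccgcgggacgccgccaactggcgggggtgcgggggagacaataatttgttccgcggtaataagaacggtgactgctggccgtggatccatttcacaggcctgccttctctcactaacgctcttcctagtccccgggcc
ADAMTS18: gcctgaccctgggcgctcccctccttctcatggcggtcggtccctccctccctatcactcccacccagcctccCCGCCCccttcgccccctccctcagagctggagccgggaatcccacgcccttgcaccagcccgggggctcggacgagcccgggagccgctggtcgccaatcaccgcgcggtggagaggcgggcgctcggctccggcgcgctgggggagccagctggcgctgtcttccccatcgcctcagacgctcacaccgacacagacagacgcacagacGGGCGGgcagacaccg
The windows held 2 GC boxes for TIMP1, 5 for TIMP3, 1 for TIMP4, 3 for ADAM12 and 2 for ADAMTS18, none overlapping another motif searched. A window was found for 37 of the 64 genes, and 24 of those (64.9%) held a GC box, against 44.6% of all 27305 windows. Among genes called in SMC versus hESC that have a window, 8 of 12 called higher and 5 of 6 called lower held one. The TATA box TATAAA was in 8 of 37 windows (21.6%), against 12% of all windows. The AP-1 site TGAGTCA, the site of Fos and Jun factors, was in 1 window, that of MMP7 (2.70%, against 4.92%). The TCF/LEF site CTTTGAT and the CArG box, the site of serum response factor, were in 0 of 37 windows, against 2.64% and 1.29% of all windows. Both strands were searched, and these are letter matches only.

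TIMP1, which blocks most secreted MMPs, rose at each step. It read 10.74 and 10.71 in hESC, 11.71 and 11.45 in INM, then 13.33 and 13.41 in SMC, with no overlap between groups. The log2 change was 0.86 ± 0.13 (SE) in INM versus hESC (limma, adjusted p = 0.00384) and 1.79 ± 0.13 in SMC versus INM (limma, adjusted p = 0.000394). TIMP2, which also takes part in activating the MMP2 proenzyme, read 9.19 and 9.21 in hESC, 10.23 and 9.45 in INM, then 11.17 and 11.18 in SMC. Its groups did not overlap, but the 2 INM arrays lay 0.79 apart. TIMP2 was not called in INM versus hESC (0.64 ± 0.24, limma, adjusted p = 0.0854) and rose in SMC versus INM (1.34 ± 0.24, limma, adjusted p = 0.0112). That call was not kept without SMC replicate 1 or SMC replicate 2. In INM versus hESC the change was 1.03 without INM replicate 2, and after median centring it was 0.83 and called.

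TIMP3, the inhibitor held in the matrix and the one known to block ADAM17 and aggrecan-cutting ADAMTS enzymes, was higher than in hESC in both later groups. It read 7.45 and 7.76 in hESC, 11.83 and 10.15 in INM, then 11.94 and 11.99 in SMC. Both INM arrays lay above both hESC arrays, and INM replicate 1 was close to the SMC arrays while replicate 2 was not. The change was 3.39 ± 0.49 in INM versus hESC (limma, adjusted p = 0.00309) and 4.36 ± 0.49 in SMC versus hESC (limma, adjusted p = 0.000821). On a second TIMP3 probe set, not tested, the differences were 0.82 in INM versus hESC and 1.92 in SMC versus hESC. In SMC versus INM the change on the probe set tested was 0.97 ± 0.49 and was not called (limma, adjusted p = 0.21). That change was 1.82 without INM replicate 1 and 0.13 without INM replicate 2. TIMP4, the inhibitor known for its level in the heart, ran the other way. It read 8.37 and 8.38 in hESC, 6.96 and 6.39 in INM, then 7.39 and 7.48 in SMC. TIMP4 fell by 1.70 ± 0.19 in INM versus hESC (limma, adjusted p = 0.00126) and was 0.76 ± 0.19 higher in SMC than in INM (limma, adjusted p = 0.0361), a call that was not kept without SMC replicate 1 (0.15), SMC replicate 2 (0.193) or either hESC array (0.0838). SMC stayed below hESC, by a change of -0.94 ± 0.19 (limma, adjusted p = 0.00937), and this call was not kept without SMC replicate 1 (0.0698), SMC replicate 2 (0.0559), hESC replicate 1 (0.0614) or hESC replicate 2 (0.0615).

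Among the 16 secreted MMPs, 5 were called higher (31.2%, against 19.7% of all genes) and 0 lower (against 17.6%) in SMC versus hESC. The 5 were MMP1, MMP2, MMP7, MMP19 and MMP28. At an unadjusted p under 0.05 in limma's test the count lower was also 0. The hESC means of MMP1, MMP3, MMP7, MMP8, MMP12, MMP13, MMP26 and MMP27 lay under the background limit. Such genes can hardly be called lower, so the count of 0 does not show a shift of the class. MMP7 lay under the limit in both groups, at 4.94 in SMC and 4.44 in hESC. MMP1, interstitial collagenase, cuts fibrillar collagen. It read 4.86 and 5.04 in hESC, 6.03 and 6.54 in INM, then 9.94 and 9.74 in SMC. The hESC arrays lay at or under the background limit and the groups did not overlap. MMP1 rose by 1.34 ± 0.19 in INM versus hESC (limma, adjusted p = 0.0031) and by 3.55 ± 0.19 in SMC versus INM (limma, adjusted p = 0.000149). MMP2, gelatinase A, which cuts denatured collagen and basement membrane collagen, read 8.56 and 8.86 in hESC, 12.69 and 11.66 in INM, then 11.69 and 11.81 in SMC. Its level in SMC lay inside the range of the 2 INM arrays. MMP2 rose by 3.47 ± 0.31 in INM versus hESC (limma, adjusted p = 0.000568), and the change of -0.42 ± 0.31 in SMC versus INM was not called (limma, adjusted p = 0.397). Without INM replicate 1 that change was 0.09, and without INM replicate 2 it was -0.94.

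MMP9, gelatinase B, had the widest gap between replicates of all 64 genes. It read 7.19 and 7.25 in hESC, 11.66 and 7.82 in INM, then 7.35 and 7.43 in SMC, so that 1 INM array stood far above the other 5 arrays. MMP9 was not called in INM versus hESC (2.52 ± 1.07, limma, adjusted p = 0.116), nor in SMC versus INM (-2.35 ± 1.07, limma, adjusted p = 0.175). Without INM replicate 1 the changes were 0.60 (adjusted p = 0.00675) and -0.43 (0.0328), and without INM replicate 2 they were 4.44 (8.14e-07) and -4.27 (3.16e-06). In those fits INM is 1 array and the spread comes from the other groups alone, so the p-values leave out the gap between the INM arrays. The size of the change rests on 1 array. The gap between INM replicates 1 and 2 was over 1 for 4 of the 64 genes, MMP9 (3.84), TIMP3 (1.69), MMP14 (1.34) and MMP2 (1.03), all higher in replicate 1. Over all 64 genes, 36 were higher in replicate 1, and over all genes 700 lay more than 1 apart in INM, against 16 in hESC. For the 5 trophoblast markers, 4 of 5 were higher in INM replicate 1, with a summed signal of 374 and 145 in INM, against 197 and 181 in hESC, and PSG1 and XAGE2 were under the background limit on all arrays. The 6 mesoderm markers were all lower in INM replicate 1, by a median of 1.04, with a summed signal of 7340 and 9935 in INM, against 534 and 517 in hESC. The 5 blood and macrophage markers, cells known for MMP9, summed to 318 and 385 in INM, against 323 and 305 in hESC, with PTPRC under the background limit on all arrays. Single genes of that list went both ways in INM versus hESC. CSF1R (1.05) was called higher and AIF1 (-0.90) lower, and PTPRC, CD14 and CD68 were not called. CSF1R read 6.58 and 7.40 in INM, against 6.07 and 5.81 in hESC. Neural markers summed to 3701 and 597 in INM, against 840 and 851 in hESC, mostly STMN2, at 11.81 and 8.95 in INM, against 9.54 and 9.57 in hESC. Other marker sums differed between INM replicates 1 and 2 as well: endothelium at 505 and 1676 (TEK at 7.97 and 10.52), smooth muscle at 10642 and 6897, and stem cell at 3688 and 5969. In hESC these sums were 685 and 696, 3328 and 3420, and 12866 and 13039. Single genes did not all follow the sums. Higher in INM replicate 1 were 3 of 5 endothelial, 5 of 10 smooth muscle and 2 of 6 stem cell genes. The part of these markers in the MMP9 result was not tested.

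**Figure D3:**
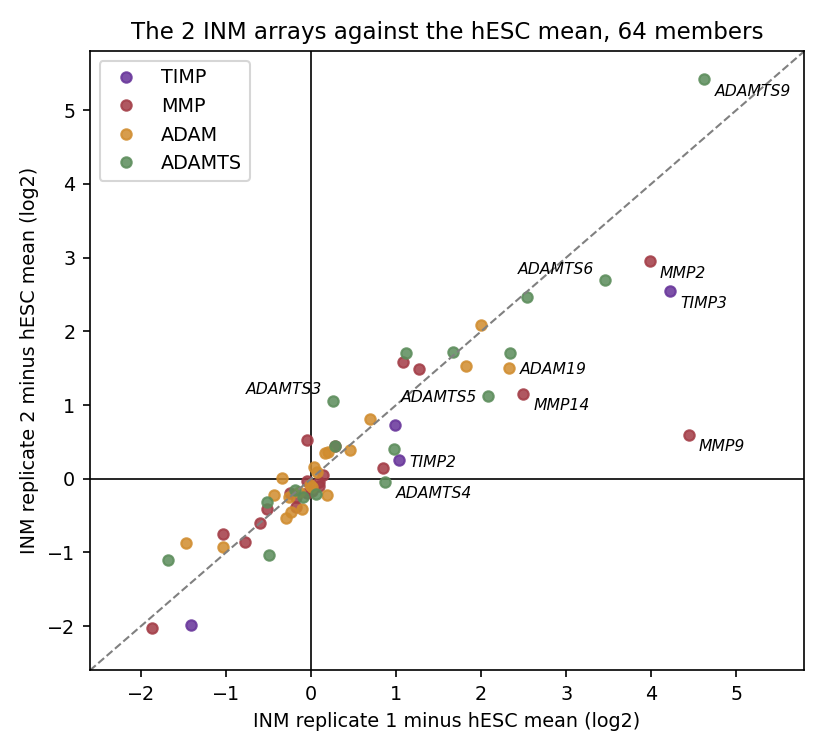
Difference of each of the 64 genes from the hESC mean (log2) in INM replicate 1 (horizontal axis) and INM replicate 2 (vertical axis), with equal values on the dashed line and a point for each gene coloured by family. MMP9 lies furthest from the line, with TIMP3, MMP14 and MMP2 also below it, while ADAMTS9 is high on both arrays.

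The remaining called secreted MMPs changed less. MMP28, epilysin, read 6.38 and 6.03 in hESC, 7.48 and 7.69 in INM, then 6.79 and 6.81 in SMC. It was thus highest in INM: the change was 1.38 ± 0.15 in INM versus hESC (limma, adjusted p = 0.0012), and MMP28 fell by 0.78 ± 0.15 in SMC versus INM (limma, adjusted p = 0.0152), a call not kept without SMC replicate 1 (0.108) or 2 (0.104). SMC versus hESC was 0.60 (adjusted p = 0.0233, limma), not kept without SMC replicate 1 (0.11), SMC replicate 2 (0.122) or hESC replicate 2 (0.125). MMP19, which cuts basement membrane proteins, read 5.97 and 5.99 in hESC, 6.26 and 6.42 in INM, then 7.29 and 7.18 in SMC. It rose in SMC versus INM, by 0.89 ± 0.12 (limma, adjusted p = 0.00356). MMP11, stromelysin 3, read 7.56 and 7.47 in hESC, 8.36 and 7.66 in INM, then 7.82 and 8.13 in SMC, where INM and SMC overlapped, and was called in no comparison.

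MMP1 belongs to a run of 9 MMP genes on chromosome 11, in the order MMP7, MMP20, MMP27, MMP8, MMP10, MMP1, MMP3, MMP12 and MMP13, and no other protein-coding gene of the reference table lies between them. MMP10, next to it on one side, read between 5.04 and 5.49 on all 6 arrays and was called in no comparison. MMP3, stromelysin 1, next to it on the other side, read 4.84 and 4.57 in hESC, 4.53 and 4.32 in INM, then 5.04 and 5.33 in SMC. It was called in SMC versus INM only, at 0.76 (adjusted p = 0.0198, limma), and not without SMC replicate 1 (0.0618) or 2 (0.147). MMP12, macrophage elastase, was called in the same comparison at 0.57 (limma, adjusted p = 0.0456), a call kept without INM replicate 1 alone, with adjusted p 0.0636 to 0.242 without each other array. MMP7, matrilysin, was called in SMC versus hESC at 0.49 (limma, adjusted p = 0.028), not kept without SMC replicate 1 (0.175), hESC replicate 1 (0.118) or hESC replicate 2 (0.117). MMP27 at -0.46 and MMP26, which lies elsewhere on the chromosome, at -0.60 were called lower in INM versus hESC (limma, adjusted p = 0.0392 and 0.0461), with adjusted p 0.203 and 0.237 without hESC replicate 1, and neither call held after median centring or quantile normalization. All of these levels but that of MMP1 in INM and SMC lay near or under the background limit.

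The 6 membrane-bound MMPs split in direction. MMP14, which cuts collagen at the cell surface and activates the MMP2 proenzyme, read 8.17 and 8.24 in hESC, 10.70 and 9.36 in INM, then 10.27 and 10.38 in SMC. It rose 3.54-fold in INM versus hESC (1.83 ± 0.39, limma, adjusted p = 0.013) and 4.34-fold in SMC versus hESC (2.12 ± 0.39, limma, adjusted p = 0.006). The first call was not kept without hESC replicate 1 or 2, and the second not without hESC replicate 1 or SMC replicate 2. The SE is shared by the groups and holds the gap between the INM arrays (SD 0.95). Between replicates the SD was 0.05 in hESC and 0.08 in SMC. SMC lay inside the range of the INM arrays, and SMC versus INM was 0.29 ± 0.39 (limma, adjusted p = 0.644). That change was 0.96 without INM replicate 1 and -0.38 without INM replicate 2. MMP16, the related MT3-MMP, was lowest in INM. It read 9.25 and 9.46 in hESC, 7.48 and 7.33 in INM, then 9.84 and 9.84 in SMC. It fell by 1.95 ± 0.13 in INM versus hESC (limma, adjusted p = 0.000173) and rose by 2.43 ± 0.13 in SMC versus INM (limma, adjusted p = 0.000129). SMC was 0.49 above hESC (limma, adjusted p = 0.0237), not kept without SMC replicate 1 (0.117), SMC replicate 2 (0.122) or hESC replicate 1 (0.14).

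The other membrane MMPs were lower or not called. MMP24, known from the nervous system, read 8.01 and 7.94 in hESC, 7.20 and 7.12 in INM, then 6.64 and 6.96 in SMC. Its change was -0.82 ± 0.14 in INM versus hESC (limma, adjusted p = 0.0061, and 0.053 without hESC replicate 1) and -1.18 ± 0.14 in SMC versus hESC (limma, adjusted p = 0.00109). MMP25, a lipid-anchored enzyme of leukocytes, read 7.09 and 6.94 in hESC, 5.98 and 6.26 in INM, then 5.94 and 6.04 in SMC. It fell by 0.90 in INM versus hESC and by 1.03 in SMC versus hESC (limma, adjusted p = 0.00405 and 0.00179). MMP15 read 7.94 and 7.94 in hESC, 7.89 and 8.47 in INM, then 7.30 and 7.21 in SMC. It was lower in SMC than in INM by a change of -0.93 (limma, adjusted p = 0.0182) and than in hESC by -0.69 (limma, adjusted p = 0.0304), each kept without either INM array alone, with adjusted p up to 0.131 and 0.153 without each other array, the highest each time without SMC replicate 2. MMP17, lipid-anchored as well, was called in no comparison and read between 6.32 and 6.77.

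**Figure D4:**
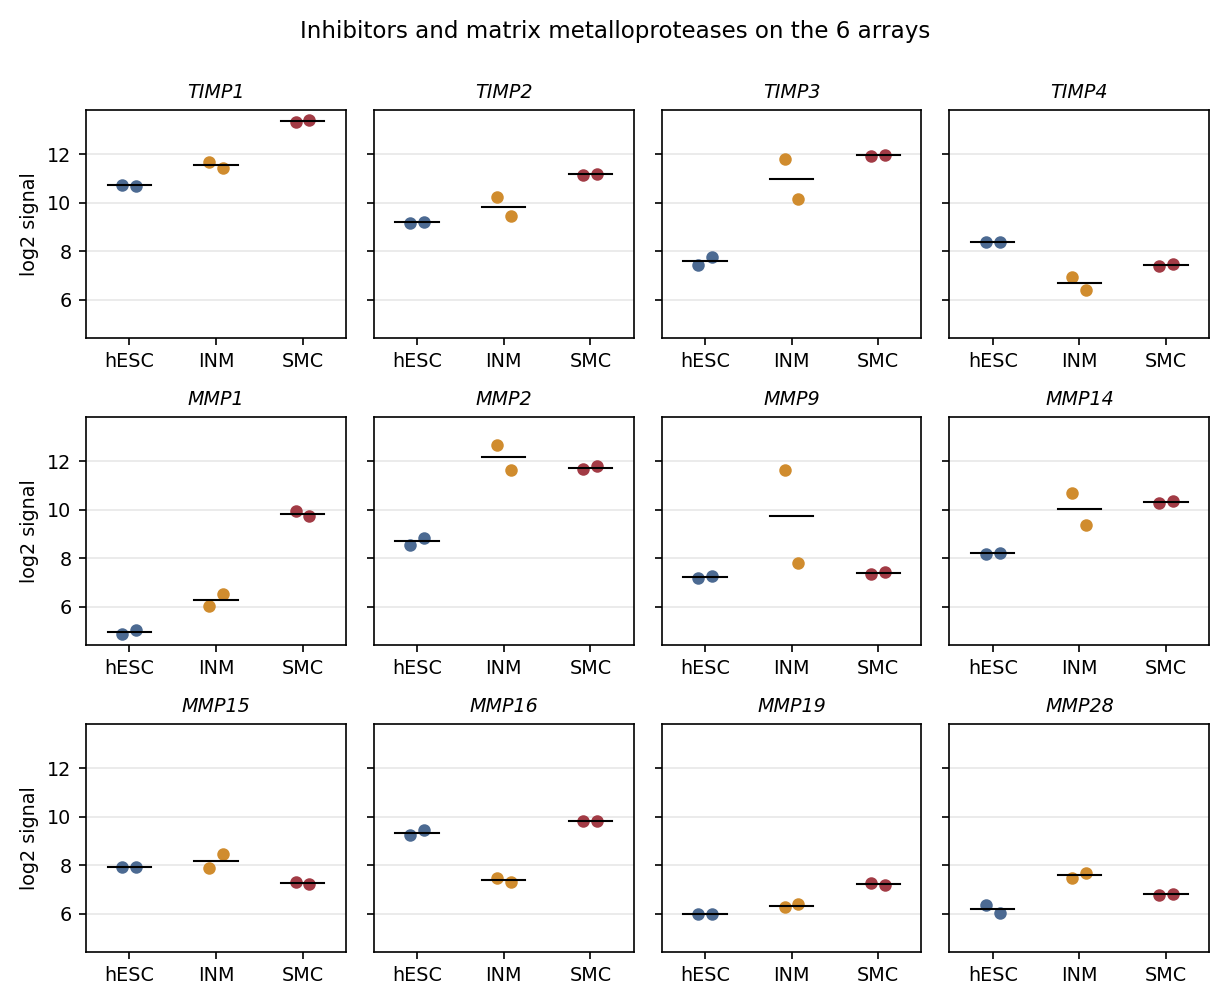
Log2 signal of TIMP and MMP genes on each array, with a panel for each gene, groups along the horizontal axis in the order hESC, INM and SMC, a point for each array and a bar at the group mean. TIMP1 and MMP1 climb through the 3 groups, TIMP4 and MMP16 are lowest in INM, and the 2 INM points of MMP9, at 11.66 and 7.82, are far apart.

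Of the 12 ADAM genes classed as active proteases, 5 were called higher in SMC versus hESC (41.7%, against 19.7% of all genes) and 2 lower (16.7%, near the 17.6% of all genes). ADAM12, the meltrin alpha known from muscle and placenta, had the clearest course of the family. It read 5.76 and 6.12 in hESC, 7.94 and 8.02 in INM, then 10.80 and 10.78 in SMC, with groups apart at each step. The change was 2.04 ± 0.15 in INM versus hESC (limma, adjusted p = 0.000227), 2.81 ± 0.15 in SMC versus INM (limma, adjusted p = 0.000129) and 4.85 ± 0.15 in SMC versus hESC (limma, adjusted p = 1.22e-05), and all 3 calls were kept whichever array was left out. ADAM9 read 8.52 and 8.71 in hESC, 10.44 and 10.15 in INM, then 10.93 and 10.74 in SMC. It rose 3.21-fold in INM versus hESC (limma, adjusted p = 0.000525). The further 0.54 in SMC versus INM (limma, adjusted p = 0.0482) was kept only without INM replicate 1, and adjusted p was 0.0867 to 0.252 without each of the other arrays. ADAM19, which is needed for heart development in the mouse, read 8.82 and 8.98 in hESC, 11.23 and 10.40 in INM, then 10.20 and 10.20 in SMC. It rose by 1.92 ± 0.26 in INM versus hESC (limma, adjusted p = 0.00238) and was 1.31 ± 0.26 higher in SMC than in hESC (limma, adjusted p = 0.00808), a call not kept without SMC replicate 1 (0.0562), SMC replicate 2 (0.0575) or hESC replicate 1 (0.0652).

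The main general sheddases changed little or for a time. ADAM17, which releases TNF and EGF receptor ligands, read 8.31 and 8.40 in hESC, 9.05 and 9.16 in INM, then 8.45 and 8.37 in SMC. INM stood above both other groups: the change was 0.75 ± 0.11 in INM versus hESC (limma, adjusted p = 0.00383), and ADAM17 fell by 0.70 ± 0.11 in SMC versus INM (limma, adjusted p = 0.00805), not kept without SMC replicate 1 (0.0611) or 2 (0.0845). In SMC versus hESC the change was 0.05 (limma, adjusted p = 0.747). ADAM10, the main sheddase of Notch receptors, read 11.33 and 11.34 in hESC, 11.50 and 11.69 in INM, then 11.44 and 11.29 in SMC. It was called in no comparison, with 0.26 ± 0.12 in INM versus hESC (limma, adjusted p = 0.159), but reached 0.44 and a call there after median centring. ADAM15 read 7.22 and 7.31 in hESC, 6.92 and 7.28 in INM, then 8.25 and 8.13 in SMC, and rose in SMC versus INM by 1.09 ± 0.15 (limma, adjusted p = 0.00408, and 0.0509 without SMC replicate 1).

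ADAM20 and ADAM21, related genes known from the testis, lie side by side on chromosome 14. ADAM20 fell by 0.99 ± 0.12 in INM versus hESC (limma, adjusted p = 0.00177), with 5.02 and 5.13 in INM, against 6.16 and 5.96 in hESC. ADAM21 was called the other way, at 0.42 (limma, adjusted p = 0.0403), with 5.29 and 5.22 in INM, against 4.85 and 4.82 in hESC. That call was kept without INM replicate 2 alone, with adjusted p 0.061 to 0.152 without each other array, and the call at 0.40 in SMC versus hESC (limma, adjusted p = 0.0425) was kept without either INM array alone, with adjusted p 0.069 to 0.24 otherwise. Signals of such similar genes near the background limit are uncertain. ADAM28 was called lower in SMC than in hESC at -0.46 (limma, adjusted p = 0.043), kept without either INM array, with adjusted p 0.057 to 0.21 without each other array, and not kept after median centring. ADAM8, ADAM30 and ADAM33 were called in no comparison.

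Of the 7 ADAM genes whose products lack protease activity, 3 were called by the test over all 3 groups (42.9%, near the 45.5% of all genes). ADAM23 changed direction with time. ADAM22 and ADAM23 are adhesion proteins of neurons that bind LGI1. ADAM23 read 8.75 and 8.89 in hESC, 7.35 and 7.95 in INM, then 10.08 and 10.07 in SMC. It fell by 1.17 ± 0.20 in INM versus hESC (limma, adjusted p = 0.00579, and 0.0501 without hESC replicate 2) and rose by 2.42 ± 0.20 in SMC versus INM (limma, adjusted p = 0.000623). ADAM22 read 6.69 and 7.00 in hESC, 6.61 and 6.39 in INM, then 5.60 and 5.52 in SMC. It fell in SMC, by 0.94 ± 0.15 against INM (limma, adjusted p = 0.00726, not kept without SMC replicate 1, 0.0598, or 2, 0.0757) and by 1.28 ± 0.15 against hESC (limma, adjusted p = 0.00101). ADAM32 was 0.71 higher in SMC than in hESC (limma, adjusted p = 0.00702), not kept without SMC replicate 1 (0.0539), SMC replicate 2 (0.0551) or hESC replicate 1 (0.0523). ADAM2, ADAM11, ADAM18 and ADAM29, and the pseudogenes ADAM5 and ADAM6, were called in no comparison.

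Of the 17 ADAMTS genes, 8 were called higher (47.1%, against 18.9% of all genes) and 2 lower (11.8%, against 14.8%) in INM versus hESC. Between SMC and INM, 4 were lower in SMC (23.5%, against 11.1% of all genes), and in SMC versus hESC 5 were called higher and 3 lower (29.4% and 17.6%, against 19.7% and 17.6% of all genes). ADAMTS9, a versican-cutting enzyme, had the largest rise of all 64 genes in INM versus hESC. It read 5.75 and 5.78 in hESC, 10.39 and 11.19 in INM, then 10.31 and 10.26 in SMC. INM and SMC both lay far above hESC, by 5.02 ± 0.24 (limma, adjusted p = 7.29e-05) and 4.52 ± 0.24 (limma, adjusted p = 5.13e-05), and SMC versus INM was not called (-0.50 ± 0.24, limma, adjusted p = 0.199). ADAMTS1, also a versicanase, read 7.32 and 7.40 in hESC, 8.48 and 9.07 in INM, then 9.31 and 9.32 in SMC. It rose by 1.42 ± 0.19 in INM versus hESC and by 1.96 ± 0.19 in SMC versus hESC (limma, adjusted p = 0.00259 and 0.000518). ADAMTS5, the aggrecanase next to ADAMTS1 on chromosome 21, was highest in INM, at 5.56 and 5.76 in hESC, 7.74 and 6.78 in INM, then 6.44 and 6.33 in SMC. It rose by 1.60 ± 0.29 in INM versus hESC (limma, adjusted p = 0.00754), a call not kept without hESC replicate 1. SMC versus INM was -0.87 ± 0.29 (limma, adjusted p = 0.0812), and -1.35 without INM replicate 2. SMC versus hESC was 0.72 (limma, adjusted p = 0.0968). It was called at the same size without either INM array, where the spread leaves out the INM gap.

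The rest of the proteoglycan-cutting group was lower or not called. ADAMTS20 read 6.62 and 6.75 in hESC, 5.00 and 5.58 in INM, then 5.40 and 5.53 in SMC, and fell by 1.40 ± 0.20 in INM versus hESC and by 1.23 ± 0.20 in SMC versus hESC (limma, adjusted p = 0.003 and 0.00374). ADAMTS8 was called lower in SMC than in hESC at -0.47 (limma, adjusted p = 0.0312), kept without either INM array, with adjusted p 0.0586 to 0.172 without each other array, and not kept after median centring. ADAMTS4, at 7.06 and 6.94 in hESC, 7.87 and 6.96 in INM, then 6.91 and 7.05 in SMC, was called in no comparison, and its INM arrays lay 0.91 apart. Of the procollagen N-propeptidases, which trim fibrillar procollagen, ADAMTS2 was high in INM. It read 7.53 and 7.40 in hESC, 9.14 and 9.18 in INM, then 7.58 and 7.72 in SMC. ADAMTS2 rose by 1.69 ± 0.12 in INM versus hESC (limma, adjusted p = 0.000211) and fell by 1.51 ± 0.12 in SMC versus INM (limma, adjusted p = 0.000515), and SMC versus hESC was 0.18 (limma, adjusted p = 0.269). ADAMTS3 and ADAMTS14 were called in no comparison.

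Among the other ADAMTS genes, ADAMTS18 was high in INM and low in both other groups. It read 5.39 and 5.24 in hESC, 7.86 and 7.78 in INM, then 5.13 and 4.77 in SMC. It rose by 2.51 ± 0.15 in INM versus hESC (limma, adjusted p = 0.000135) and fell by 2.87 ± 0.15 in SMC versus INM (limma, adjusted p = 0.00014), with both calls kept whichever array was left out. ADAMTS6, linked to fibrillin microfibrils, read 5.23 and 5.21 in hESC, 8.68 and 7.91 in INM, then 7.49 and 7.39 in SMC. It rose by 3.07 ± 0.24 in INM versus hESC (limma, adjusted p = 0.00031). It fell by 0.86 ± 0.24 in SMC versus INM (limma, adjusted p = 0.0475), not kept without either SMC array (0.179 and 0.223) or either hESC array (0.102). ADAMTS12, which cuts the cartilage protein COMP, read 7.76 and 7.72 in hESC, 10.08 and 9.44 in INM, then 9.84 and 9.84 in SMC, and rose by 2.02 ± 0.20 in INM versus hESC and 2.10 ± 0.20 in SMC versus hESC (limma, adjusted p = 0.000847 and 0.000481).

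ADAMTS10, a relative of ADAMTS6, was called higher in INM than in hESC at 0.70 and in SMC than in hESC at 0.84 (limma, adjusted p = 0.0323 and 0.0146), each kept without either INM array alone, with adjusted p up to 0.157 and 0.0919 without each other array, the highest each time without hESC replicate 1. ADAMTS16 read 7.86 and 7.97 in hESC, 7.42 and 6.88 in INM, then 6.57 and 6.96 in SMC. Its change in SMC versus hESC was -1.15 ± 0.21 (limma, adjusted p = 0.00656, not kept without SMC replicate 1, 0.0555, or hESC replicate 2, 0.0533). In INM versus hESC it was -0.76 (limma, adjusted p = 0.0349), kept without INM replicate 1 alone, with adjusted p 0.0538 to 0.154 without each other array, and not kept after median centring. ADAMTS17 was called lower in SMC than in INM at -0.50 (limma, adjusted p = 0.0372), kept without INM replicate 1 alone, with adjusted p 0.0599 to 0.185 without each other array. ADAMTS13, which cuts von Willebrand factor, and ADAMTS19 were called in no comparison.

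**Figure D5:**
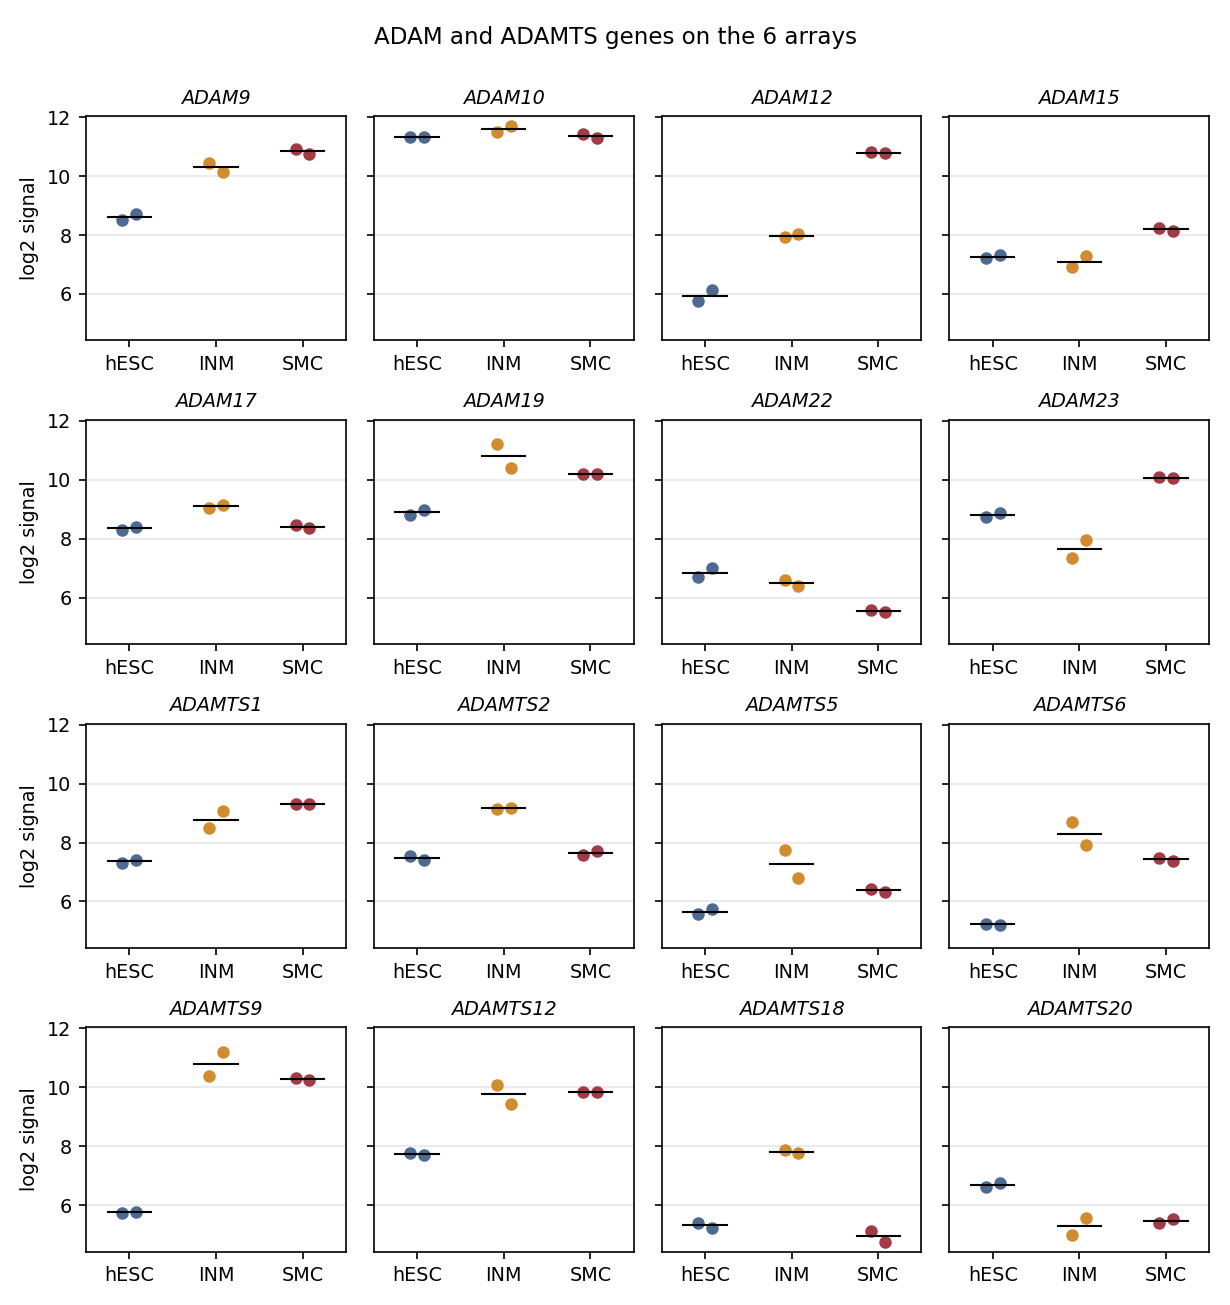
Log2 signal of ADAM and ADAMTS genes on each array, with a panel for each gene, groups along the horizontal axis in the order hESC, INM and SMC, a point for each array and a bar at the group mean. ADAM12 climbs through the 3 groups, ADAMTS9 is high in INM and SMC, and ADAMTS18 and ADAMTS2 are high in INM and close to hESC in SMC.

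Over the course as a whole, 4 of the 64 genes were called higher at each of the 3 comparisons: ADAM9, ADAM12, MMP1 and TIMP1. For ADAM9 the call in SMC versus INM was kept only without INM replicate 1, and it was lost after median centring. ADAM17, ADAMTS2 and ADAMTS18 were called higher in INM than in hESC and lower in SMC than in INM, and were not called between SMC and hESC. ADAM23 and MMP16 were called lower in INM and then above both other groups in SMC. A further 23 genes were called in no comparison. The shares of all genes with these courses were not counted, so the counts are a description only.

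Proteins that switch these enzymes on or hold them back were also measured, as a list of 48 genes of which 45 were present. This list and those of matrix and shed proteins below were drawn up with earlier results of these data known, so their counts are a description. In INM versus hESC, 17 were called higher (37.8%, against 18.9% of all genes) and THBS2, ADAMTSL1, TSPAN33 and PZP were called lower (8.89%, against 14.8%), with a median change of 0.23, against -0.03 over all genes. FURIN, the convertase that cuts the propeptides of membrane MMPs and ADAM proteases, rose by 2.12 ± 0.12 (limma, adjusted p = 0.000124), and PLAT, tissue plasminogen activator, by 3.79 ± 0.36 (limma, adjusted p = 0.000643). TSPAN15, a tetraspanin that guides ADAM10 to its substrates, rose by 2.26 and its relative TSPAN33 fell by 1.20 (limma, adjusted p = 0.000119 and 0.00274). In SMC versus INM, 12 were called higher (26.7%, against 9.94% of all genes) and TSPAN33, ADAMTSL3, PCSK5, TSPAN14 and FURIN lower (11.1%, as over all genes), with a median of 0.22, against -0.02 over all genes. TFPI2, a serine protease inhibitor of the matrix, rose by 3.53 ± 0.24 and RECK, a membrane inhibitor of MMPs, by 1.20 ± 0.14 (limma, adjusted p = 0.000314 and 0.00253). In SMC versus hESC, 23 were called higher (51.1%, against 19.7% of all genes) and TSPAN33 and PCSK5 lower (4.44%, against 17.6%), with a median of 0.75, against -0.05 over all genes. PLAU, urokinase, was not called (0.48 ± 0.30, limma, adjusted p = 0.258). The counts in INM versus hESC were 12 and 11 in all without hESC replicate 1 and 2, and those in SMC versus INM were 10 and 8 without SMC replicate 1 and 2.

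Genes of matrix proteins that these enzymes cut were mostly called higher against hESC. Of 28 measured, 20 were called higher in INM versus hESC, 13 when SMC was set against INM, and 21 when it was set against hESC (71.4%, 46.4% and 75%, against 18.9%, 9.94% and 19.7% of all genes), with medians of 1.78, 0.65 and 2.23, against -0.03, -0.02 and -0.05 over all genes. Called lower were BCAN in INM versus hESC, LAMA1 and ACAN in SMC versus INM, and LAMA1, NCAN and BCAN in SMC versus hESC. LUM, the proteoglycan lumican, rose by 7.83 ± 0.12 in INM versus hESC (limma, adjusted p = 3.06e-06). DCN, decorin, rose by 6.11 ± 0.35 in SMC versus INM (limma, adjusted p = 0.000165). COL1A1, a chain of collagen I, which MMP1 cuts, rose by 2.32 in INM versus hESC and by 1.63 in SMC versus INM (limma, adjusted p = 0.000996 and 0.00594). VCAN, versican, the proteoglycan that ADAMTS9 and ADAMTS1 cut, was not called in INM versus hESC (-0.57 ± 0.24, limma, adjusted p = 0.113) and rose in SMC versus INM by 1.41 ± 0.24 (limma, adjusted p = 0.00873). The count in SMC versus INM was 4 in all without either SMC array.

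Genes of membrane proteins known to be shed by ADAM proteases were called in both directions. Of 37 measured, 9 were called higher and 6 lower in INM versus hESC (24.3% and 16.2%, near the 18.9% and 14.8% of all genes). The counts were 7 and 6 for SMC against INM (18.9% and 16.2%, against 9.94% and 11.1% of all genes) and 13 and 6 for SMC against hESC (35.1% and 16.2%, against 19.7% and 17.6%), with medians of 0.08, 0.12 and 0.07. CD44, the hyaluronan receptor, rose by 1.91 ± 0.41 in INM versus hESC (limma, adjusted p = 0.0135), and HBEGF, an EGF receptor ligand, by 1.30 ± 0.33 (limma, adjusted p = 0.0237). CDH1, E-cadherin, was not called in INM versus hESC (-0.36 ± 0.38, limma, adjusted p = 0.494) and fell by 4.10 ± 0.38 in SMC versus INM (limma, adjusted p = 0.00093). EPHA3, an ephrin receptor, rose by 2.55 ± 0.16 in SMC versus INM, and PTPRZ1, a receptor phosphatase, fell by 3.58 ± 0.30 (limma, adjusted p = 0.000222 and 0.000654). NOTCH1 was called in no comparison, with 0.07 ± 0.16 in INM versus hESC (limma, adjusted p = 0.759). The calls in INM versus hESC numbered 7 and 9 without hESC replicate 1 and 2 and 24 without INM replicate 2. Those in SMC versus INM numbered 6 without either SMC array and 21 without INM replicate 1.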

How the data were processed

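Expression was measured on 6 Affymetrix arrays of WA09 cells, 2 each of hESC, INM and SMC, grouped by sample title. The deposited table holds log2 values of 33297 probe sets, and per the submitters' processing notes the authors used RMA and limma. For RMA settings, versions and the array's genome build, the sources used here give nothing. Values ran from 1.36 to 14.1, which set the log2 scale. The platform's annotation gave 1 symbol for 19460 probe sets, several for 1754 and none for 12083. Symbols were updated by Entrez identifier (19429 matched), probe sets with several symbols were not used (1 of them holds ADAM21), and 18417 genes remained. MMP16 and TIMP3 had more than 1 probe set.

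The fit of 3 group means used limma 3.58.1 (R 4.3.3; lmFit, then eBayes) on the 6 arrays together. It had 3 residual degrees of freedom and 3.56 from the prior, two-sided tests and Benjamini-Hochberg adjustment over all genes at 0.05. No filter on low signal was applied, and an exact permutation test of 2 against 2 arrays cannot go below 0.333. The number of arrays limits the precision. The script was tested on simulated data. Genes named are those called with a change of at least 1, a fixed set of better-known members, the highest and most changed gene of each role class, and all behind counts of 5 or fewer; others are named after their values were seen. The genes and lists were chosen with earlier results of these data known. ADAM genes were split by protease activity from general knowledge, not from sequence. The background limit of 5.04 was chosen after seeing the data. Median centring, quantile normalization, a low-signal filter, the mean of probe sets, an intensity trend, a replicate block, fits of 2 groups and each array left out were tried, and array weights were added after seeing the data. The labels do not say whether replicate numbers pair the samples. Deviations from group means correlated at 0.0737 for hESC and INM, -0.119 for hESC and SMC and -0.067 for INM and SMC, over 18417 genes. Each group gives only 1 difference between replicates, so these values cannot show whether a culture or batch was shared.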

Additional observations from a re-analysis of the deposited data

Results flagged for a closer look

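A second probe set of TIMP3, not used in the comparisons because its mean was lower, also showed a difference: SMC minus hESC was 1.92 on the log2 scale, against 4.36 on the probe set used. It read 7.15 and 7.48 in hESC, 8.90 and 7.36 in INM, then 9.00 and 9.47 in SMC, so that INM replicate 2 lay among the hESC arrays and INM minus hESC was 0.82, against 3.39 on the probe set used. A second probe set of MMP16, likewise not used, gave an SMC minus hESC difference of 0.59, against 0.49 on the one used. It read 9.33 and 9.47 in hESC, 7.02 and 6.91 in INM, then 10.03 and 9.94 in SMC, with INM lowest on both probe sets. Both were singled out because they carry a signal outside the values tested here, and the differences were not tested.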

How the results depend on the processing

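With 2 arrays a group, single arrays moved many calls. In fits that left out 1 array, genes called in INM versus hESC numbered 21 to 33 (15 to 23 higher, 6 to 10 lower), in SMC versus INM 8 to 27 (6 to 16 higher, 2 to 13 lower), in SMC versus hESC 20 to 36 (15 to 26 higher, 5 to 10 lower) and among the 3 groups 27 to 43. The calls in the 3 comparisons numbered, in the same order, 11 to 29, 8 to 25 and 19 to 32 for the regulators, 15 to 23, 4 to 20 and 19 to 25 for the matrix proteins, and 7 to 24, 6 to 21 and 15 to 22 for the shed proteins. With only the 2 groups compared in the fit, 5 genes were called lower in SMC versus INM, where fewer arrays estimate the spread. The fit with a replicate block called 26, 17 and 31 genes, and the labels do not tie the numbers to shared cultures. Array weights gave 26, 18 and 36 and quantile normalization 32, 18 and 34. Over 97 named changes and 14 settings, 1186 of 1353 alternatives stayed on the same side of the threshold, 147 lost the call and 20 gained it. Of the called values, 0 changed sign. Uncalled values that changed sign are counted among the 1186. They include MMP2 and MMP14 in SMC versus INM with 1 INM array left out. ADAM10 in SMC versus hESC went from 0.03 to -0.05 without SMC replicate 1. The cause of the lost calls was not tested. Differences of genes under the background limit are not shown to be above background.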
